A study of Mus musculus with 6 samples.

Results

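Respiratory complex I is the NADH:ubiquinone oxidoreductase of the inner mitochondrial membrane, and the subunits described here are those encoded in the nucleus. The 35 genes were chosen by symbol from a list of subunits. The rule uses no measured value, but the list was drawn up with earlier results of these data known. All 35 were found among the 18019 gene rows of the table. All 35 also had a mean of at least 1 FPKM (fragments per kilobase of gene, scaled to library size) and so were among the 11422 genes tested. Ndufb1 was not analysed here. The table holds 0 rows of the mitochondrial genome, so the subunits made inside the organelle were not analysed here.

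Messenger RNA of heart tissue was measured in 6 wild-type mouse samples, all taken 8 weeks after TAC surgery (transverse aortic constriction), in which a narrowed aortic arch loads the heart with pressure. The 3 VNS-TAC samples came from mice given an adeno-associated virus, rAAV-ChAT-hChR2[H134R]-GFP, in the dorsal vagal motor nucleus (DVMN), which lets light activate vagal preganglionic neurones. Their library names carry the tag 10Hz, a frequency of 10 per second, while those of the controls carry no frequency. The 3 Ctrl-TAC samples came from mice given rAAV-ChAT-GFP, which lacks the light-activated channel, and both groups thus share the surgery, the promoter of choline acetyltransferase (ChAT) and the fluorescent protein. Expression of the channel depends on that promoter, and no heart without the constriction was analysed here. The sources used here give neither strain, age nor sex, and do not say that each library is a separate animal. The p-values therefore reflect the spread of these libraries alone, part of which may be technical.

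Complex I takes electrons from NADH, passes them through a flavin and a chain of iron-sulphur clusters to ubiquinone, and couples this to proton pumping. It has an L shape, with a matrix arm that holds all the redox centres and a membrane arm that pumps. The heart is rich in mitochondria, and cardiomyocytes hold most of them. The core subunits do the chemistry, whereas the others, called supernumerary, stabilise and help to assemble the enzyme.

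Transcription of the nuclear subunit genes is classically tied to the factors NRF1, GABP (of the ETS family), YY1 and the oestrogen-related receptors (ERR), so the start regions of the members are shown first. Of the 35 genes, 32 have a promoter entry in the RefSeq table (GRCm38.p6), each 300 bases long with 250 before and 50 after the gene start. The NRF1 pattern (GCGC, then A, then any base N, then GCGC), searched on both strands like all the others, lay in 7 of the 32 genes (21.9%), against 5.19% of 27025 genes in the promoter table and 11.8% of those tested here. The YY1 pattern AAGATGGC also lay in 7 of 32 (21.9%), against 3.19% of all genes and 5.41% of those tested. The ETS pattern CCGGAAG lay in 4 members (12.5%, against 9.93% and 20.5%), and the ERR pattern AAGGTCA in 3 (9.38%, against 5.38% and 3.87%). In all, 18 of 32 members held at least 1 of the 4 patterns, and no matches of different patterns overlapped in a member. A match describes the letters only.

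The 6 members below have the NRF1 pattern within the 120 bases before the gene start, and Ndufv1 and Ndufa7 are added because they were higher in all 3 VNS-TAC libraries. Each sequence is the RefSeq stretch that ends at the base before the gene start, on the strand of the gene, and capitals mark matches to any of the 4 patterns. Positions count back from the gene start, the base before it being -1.
Ndufa11, chr17:56717642-56717761, plus strand: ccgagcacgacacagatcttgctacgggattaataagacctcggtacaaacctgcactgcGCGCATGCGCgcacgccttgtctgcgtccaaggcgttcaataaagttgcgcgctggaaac
Ndufa5, chr6:24527691-24527810, minus strand: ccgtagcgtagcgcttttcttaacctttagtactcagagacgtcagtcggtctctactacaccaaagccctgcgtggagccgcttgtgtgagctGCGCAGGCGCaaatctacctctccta
Ndufa8, chr2:36049339-36049458, minus strand: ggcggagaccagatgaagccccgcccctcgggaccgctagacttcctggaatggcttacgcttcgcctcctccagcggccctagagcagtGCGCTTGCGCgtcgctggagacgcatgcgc
Ndufb4, chr16:37654369-37654488, minus strand: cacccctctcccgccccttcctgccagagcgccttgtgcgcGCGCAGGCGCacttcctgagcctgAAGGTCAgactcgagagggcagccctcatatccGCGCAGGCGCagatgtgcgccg
Ndufs5, chr4:123718187-123718306, minus strand: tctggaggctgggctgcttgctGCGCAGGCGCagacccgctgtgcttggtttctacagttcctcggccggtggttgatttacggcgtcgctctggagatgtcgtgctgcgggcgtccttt
Ndufs6, chr13:73328483-73328602, minus strand: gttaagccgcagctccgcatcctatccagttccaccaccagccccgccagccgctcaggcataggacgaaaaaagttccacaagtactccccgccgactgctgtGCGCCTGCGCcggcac
Ndufv1, chr19:4012756-4012875, minus strand: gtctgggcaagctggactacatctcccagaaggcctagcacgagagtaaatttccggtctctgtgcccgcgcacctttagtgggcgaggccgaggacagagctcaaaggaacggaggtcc
Ndufa7, chr17:33824452-33824571, plus strand: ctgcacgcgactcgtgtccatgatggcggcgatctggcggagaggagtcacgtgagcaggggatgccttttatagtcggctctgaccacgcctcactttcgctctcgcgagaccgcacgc
Ndufb4 carried the most matches among these stretches, with the NRF1 pattern starting at -79 and -22 and the ERR pattern at -55. In Ndufa11 the NRF1 match started at -60, in Ndufs5 at -98, in Ndufa8 at -30, in Ndufa5 at -26 and in Ndufs6 at -16. Ndufa6 had its NRF1 match after the start, at 24. The YY1 matches all lay after the gene start, between 23 and 39, in Ndufa3, Ndufa9, Ndufb8, Ndufc1, Ndufs4, Ndufs6 and Ndufs7. The letters of Ndufv1 and Ndufa7 matched none of the 4 patterns in the 300 bases searched.

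Complex I genes were abundant in all hearts. Summed over the 35 genes, they took 3.20%, 3.26% and 3.08% of the FPKM total in Ctrl-TAC 1, 2 and 3. The share was 3.86% for VNS-TAC 1, 3.50% for VNS-TAC 2 and 2.89% for VNS-TAC 3. The controls lay close together, whereas the VNS-TAC libraries lay both above and below them. The mean FPKM of a gene over the 6 libraries, a scale per gene length, ran from 110.3 for Ndufa11 to 1371 for Ndufb9, a 12.4-fold range, with a median of 473. In order from the top, the most abundant were Ndufb9, Ndufb8 (1102) and Ndufa3 (993), and the least abundant were Ndufa11, Ndufs4 (111) and Ndufb3 (213). Ndufa11 and Ndufs4 did not differ beyond their spread over libraries, at 89.8 to 159 FPKM and 85.8 to 121.

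Setting VNS-TAC against Ctrl-TAC asks whether activation of vagal neurones alters these genes in the overloaded heart. No member passed an adjusted p of 0.05 in limma (smallest adjusted p = 0.264, for Ndufv1), and 0% of the 11422 genes did. No member did so either with size factors or quantile normalization (0.0175% of all genes with each), with a GC trend removed (0.00876%) or without VNS-TAC 3 (0.0263%). At an unadjusted p under 0.05, 3 members were higher (Ndufv1, Ndufb9 and Ndufa7) and 0 lower, where 3.79% of all genes were higher and 11.3% lower. Of the 658 genes at least as abundant as the lowest member, 70 were higher and 39 lower at that limit. The mean was higher in VNS-TAC for 30 of the 35 members, against 38.2% of all genes tested, and the median log2 fold change of the members was 0.14, against -0.08 for all genes. Abundance moved with this: among the 658 genes at or above the mean FPKM of the lowest member, 64.0% were higher and the median was 0.11. Both statements depended on the scaling of the libraries, because after quantile normalization 16 of 35 members were higher and the median was -0.01, against 51.8% and 0.01 for all genes. Without VNS-TAC 1, 18 of 35 were higher, against 43.4% of all genes. With a trend of transcript length removed, 23 of 35 were higher and the median was 0.06, against -0.08 for all genes.

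The mean hides a split between the 3 VNS-TAC libraries. In VNS-TAC 1 the median member stood at 137% of its Ctrl-TAC mean, in VNS-TAC 2 at 115% and in VNS-TAC 3 at 86.9%. In VNS-TAC 1, 31 of the 35 members lay above all 3 controls, in VNS-TAC 2 27 did, and in VNS-TAC 3 only 5 did while 24 lay below all 3. Over all genes tested, 27.9%, 21.4% and 37.3% lay above all controls in these libraries, and 40.2% lay below them in VNS-TAC 3. VNS-TAC 1 was the highest of the 6 libraries for 30 members (19% of all genes), and VNS-TAC 3 the lowest for 23 (26.5% of all genes). Among the 658 abundant genes these shares were 44.1% and 40.6%. On the scale of log2(FPKM + 1) less the Ctrl-TAC mean of each gene, the members averaged 0.04, 0.03 and -0.07 in the 3 controls (SD 0.06). The average was 0.39 for VNS-TAC 1, 0.17 for VNS-TAC 2 and -0.17 for VNS-TAC 3 (SD 0.28). Over all genes tested it was -0.17, -0.08 and -0.04. Without VNS-TAC 3, 27 members were higher with no overlap between the groups, against 12.4% of all genes. This restates the counts per library above, since the library low for these genes was left out, and it adds no evidence. With VNS-TAC 3 left out, 33 members had a higher mean (36.2% of all genes), and the median log2 fold change was 0.31.

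**Figure D1:**
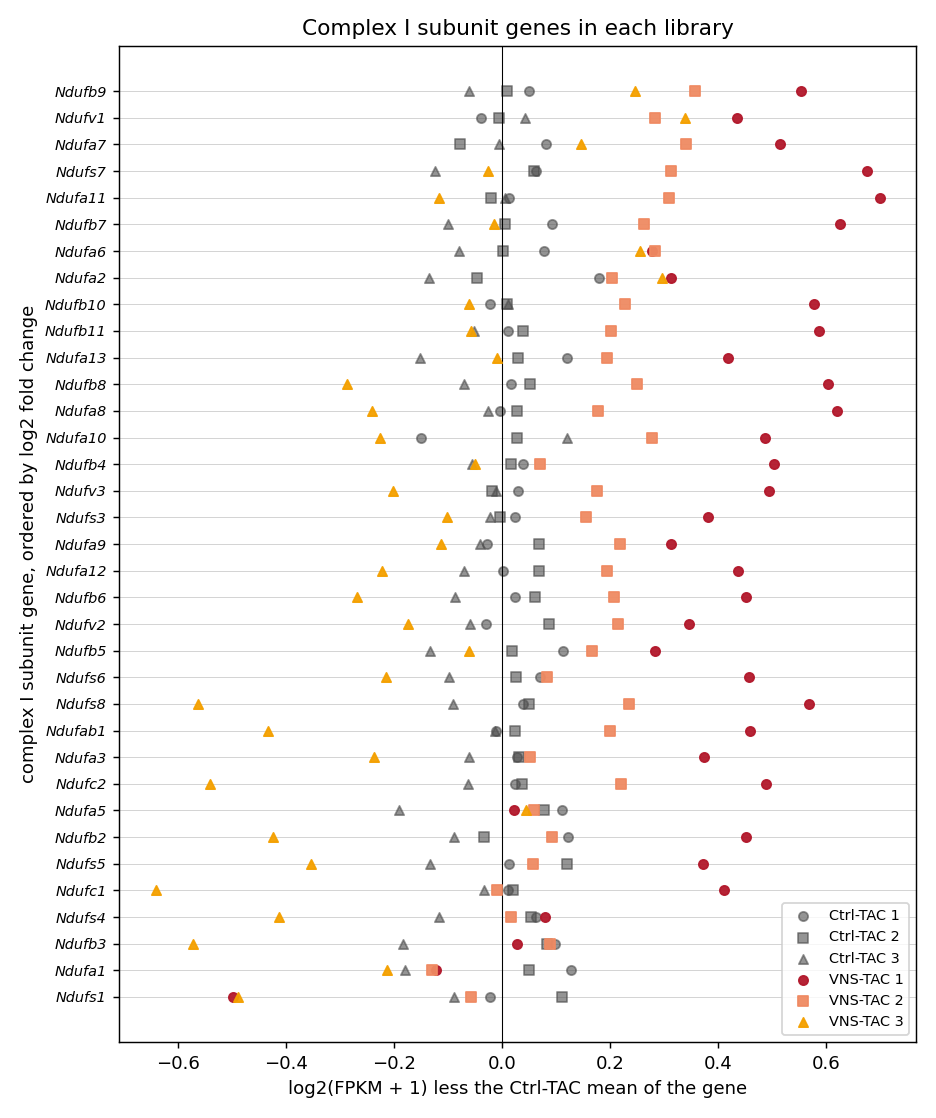
Each row is 1 of the 35 complex I subunit genes, ordered by log2 fold change, and each point is 1 library, plotted as log2(FPKM + 1) less the Ctrl-TAC mean of that gene (grey, Ctrl-TAC; colours, VNS-TAC). VNS-TAC 1 is the highest library for 30 genes and VNS-TAC 3 the lowest for 23, while the grey points stay near 0.

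VNS-TAC 1 and VNS-TAC 3 also stood apart over all genes, on principal components 2 and 1 (36.5 against -18.3 to 4.54 in the others, and 46.4 against -16.6 to 4.64). All 12 cardiomyocyte markers were detected, none at 0. Their summed FPKM was 68702 to 71969 in the controls but 93255 for VNS-TAC 1, 78159 for VNS-TAC 2 and 59588 for VNS-TAC 3. Their mean log2 level relative to Ctrl-TAC, 0.27, 0.15 and -0.34, moved with that of complex I across the same libraries. In bulk tissue, fewer cardiomyocytes and less RNA per cardiomyocyte cannot be told apart, and the part of cell makeup in the complex I values was not tested. When every library was scaled to the same level of the cardiomyocyte markers, a choice made after the data were seen, 30 members had a higher mean (35% of all genes). Of the 35, 12 were higher with no overlap (2.48% of all genes) and 1 lower, Ndufs1 (12.6%). Because the markers moved with complex I, this scaling tends to narrow the spread of the members by construction. It also shifts the shares of all genes, whose median moved to -0.11, so the rise to 12 adds no evidence. The smallest adjusted p of a member on this scale was 0.652 in limma (Ndufb9). Ndufv1, Ndufb9 and Ndufa7 were among the 12, whereas Ndufa6 and Ndufa2, which did not overlap as deposited, overlapped on this scale. Summed markers of other cells were lower in every VNS-TAC library for fibroblasts (361 to 463 FPKM against 509 to 578) and for smooth muscle (181 to 220.4 against 229 to 370). The fibroblast sum was highest of these in VNS-TAC 3, where Dcn lay above every control (152, 241 and 388 against 279, 285 and 257). The mean log2 level of the 8 fibroblast genes relative to Ctrl-TAC ran the other way, at -0.46, -0.74 and -1.26 in VNS-TAC 1, 2 and 3. Summed markers were higher in each VNS-TAC library for neutrophils (45.8 to 100.3 against 0.86 to 4.15, with 4 of 8 genes past the filter). Erythroid markers, at 1503, 310.2 and 25.1 FPKM against 183 to 578, were likewise highest in VNS-TAC 1 and lowest in VNS-TAC 3. Macrophage markers kept that order across the VNS-TAC libraries (375, 244 and 203 against 297 to 326). So did endothelial (339, 305 and 272 against 338 to 383) and skeletal muscle markers (3678, 3376 and 1072 against 3284 to 5603). Atrial markers ran in the reverse order, at 3856, 5501 and 9110 FPKM, with controls as wide as 3064 to 9847. The part of these markers' cells in the complex I values was not tested. Brown fat is also rich in mitochondria, and 4 of its 8 markers passed the filter, with a sum of 1079 to 1747 FPKM against 1356 to 1459 that came mostly from Cox8b, itself a complex IV subunit. Its defining marker Ucp1 had 2.08 FPKM in VNS-TAC 2, 0 in VNS-TAC 1 and 3, and at most 0.04 among the controls. The other markers went different ways, Cidea being at 31.9, 40.4 and 42.0 FPKM against 29.2, 31.0 and 27.1, and Dio2 at 0.44, 0.68 and 0.66 against 1.63, 1.62 and 0.93.

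In all 3 VNS-TAC libraries, 5 members lay above every control, as 8.01% of all genes did, and 0 lay below every control, as 17.4% did. Of the 658 genes at least as abundant as the lowest member, 143 lay above every control and 53 below. Ndufv1 encodes the subunit that binds NADH and the flavin (chromosome 19, 4007499 to 4012755, GRCm38). Its level was 757, 681 and 708 FPKM in VNS-TAC 1, 2 and 3, where the controls, here and below in the order Ctrl-TAC 1, 2 and 3, had 545, 558 and 577. All 3 VNS-TAC values were high and lay close together, and unlike most members VNS-TAC 3 was not the lowest. Its log2 fold change was 0.35 ± 0.12 (SE; 95% interval 0.07 to 0.64; limma adjusted p = 0.264).

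Ndufb9, a subunit of the distal membrane arm that carries an LYR motif and binds the acyl carrier protein (chromosome 15, 58933801 to 58939516), was at 1741, 1520.1 and 1406 FPKM against 1228, 1194 and 1136. Its groups were separated by a gap wider than the whole range of the controls, and its log2 fold change of 0.39 ± 0.14 was the highest of the members (adjusted p = 0.288). With array weights, which count VNS-TAC 1 and VNS-TAC 3 at 0.246 and 0.247 and VNS-TAC 2 at 2.82, Ndufb9 passed at an adjusted p of 0.0484, where 8.9% of all genes passed. Ndufa7, a supernumerary subunit of the matrix arm (chromosome 17, 33824572 to 33838316), was at 608, 539 and 470.4 FPKM against 449.6, 403 and 424. VNS-TAC 3 lay just above the highest control, and the log2 fold change was 0.33 ± 0.14 (adjusted p = 0.329).

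Ndufa6, the LYR-motif subunit of the matrix arm (chromosome 15, 82350139 to 82354291), was at 510.2, 512 and 502 FPKM against 444, 421 and 398. Ndufa2, a small subunit of the NADH-oxidising module with a thioredoxin-like fold (chromosome 18, 36742332 to 36744587), was at 406, 377 and 401 against 370.3, 316 and 298. In both genes the 3 VNS-TAC libraries were nearly level, and in Ndufa2 the lowest of them was only slightly above Ctrl-TAC 1. Their log2 fold changes were 0.27 ± 0.12 and 0.27 ± 0.13 (adjusted p = 0.335 and 0.367). For each of the 5 genes the 2-sided exact permutation test over 20 assignments gave p = 0.1, the smallest that 3 libraries against 3 allow. Groups without overlap always give this value, so it restates how the 5 genes were picked and adds no evidence. After quantile normalization 2 members were higher without overlap, and 3 after removal of a GC trend or of a length trend, against 14%, 5.42% and 7.63% of all genes. Members lower without overlap numbered 2 after quantile normalization (10.4% of all genes), 2 with equal FPKM sums (24.5%), 1 with the length trend removed (17.5%), 1 without VNS-TAC 2 (21.4%) and 3 without Ctrl-TAC 3 (26.1%).

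**Figure D2:**
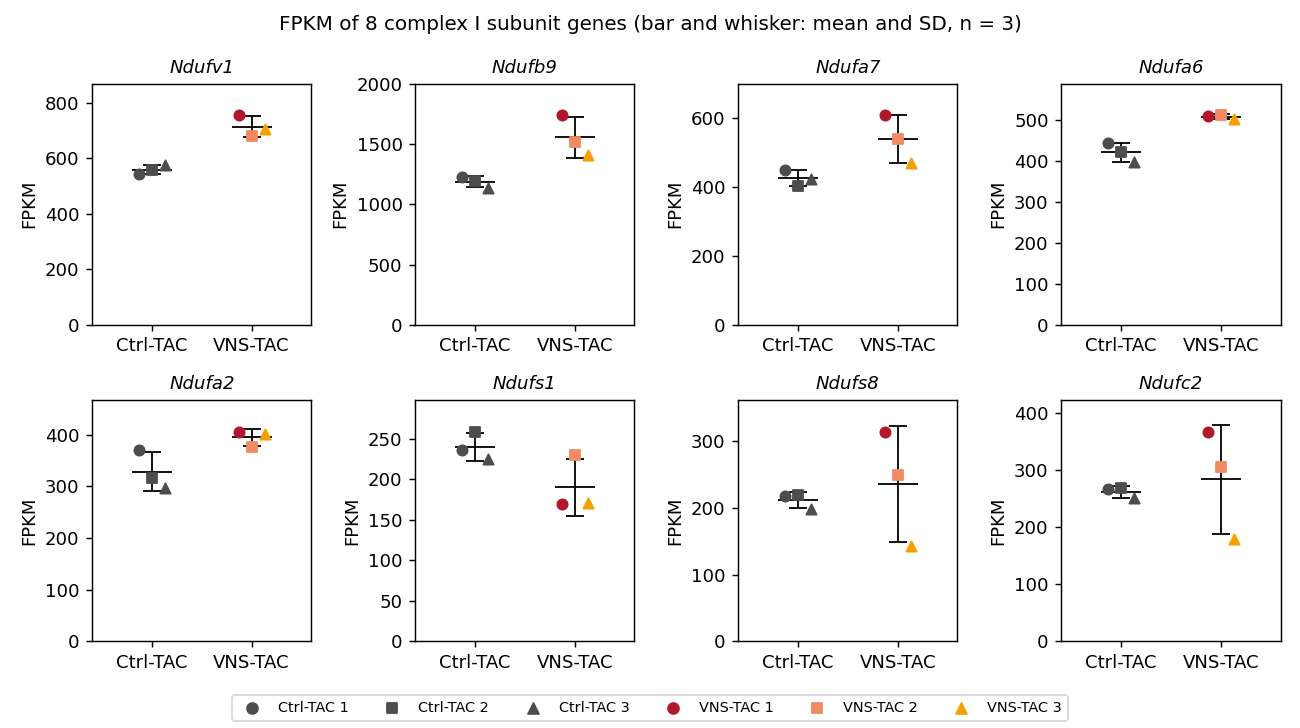
FPKM of 8 complex I subunit genes in each library, with a bar at the group mean and whiskers of 1 SD (n = 3). Ndufv1, Ndufb9, Ndufa7, Ndufa6 and Ndufa2 do not overlap between groups, 2 of the 3 VNS-TAC values of Ndufs1 lie below its controls, and Ndufs8 and Ndufc2 spread from well above to well below theirs.

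The other core subunits among the members, which hold the iron-sulphur clusters or line the quinone site, overlapped between the groups. Ndufs1, the largest core subunit and carrier of several clusters (chromosome 1, 63143592 to 63176822), was at 169, 230.0 and 170.2 FPKM against 236, 259 and 225. It had the lowest log2 fold change of the members, -0.35 ± 0.16 (95% interval -0.71 to 0.02; adjusted p = 0.345). VNS-TAC 1, the library in which most members were highest, stood at 70.6% of the Ctrl-TAC mean for Ndufs1. Ndufv1 and Ndufs1 belong to the same module and had fold changes of opposite sign, neither past the threshold.

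Ndufv2, the partner of Ndufv1 that holds a further cluster, was at 347, 317 and 242 FPKM against 268, 290.2 and 262 (log2 fold change 0.13 ± 0.16). Ndufs3, at the junction to the quinone module, was at 582, 498 and 416 against 454, 446 and 439.9 (0.15 ± 0.15). Ndufs7, which carries the last cluster before ubiquinone, was at 946, 735 and 581 against 618, 617 and 543 (0.32 ± 0.19). Ndufs8, a carrier of clusters in the quinone module, was at 314, 249.6 and 143 against 218, 219 and 199 (0.08 ± 0.27). In these 4 genes VNS-TAC 1 and 2 were above all controls. VNS-TAC 3 was the lowest library for Ndufv2, Ndufs3 and Ndufs8 and lay between the controls for Ndufs7. Their adjusted p were 0.448 to 0.898.

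The supernumerary subunits of the matrix arm that remain were Ndufs4, Ndufs6, Ndufv3, Ndufa12, Ndufa5 and Ndufa9. Ndufs4, whose loss causes Leigh syndrome in people, was at 121, 116 and 85.8 FPKM against 119.8, 119 and 106 (log2 fold change -0.11 ± 0.16), so only VNS-TAC 3 was out of the range of the controls on the low side. Ndufa5 was level across the VNS-TAC libraries, at 516, 529 and 524 against 548, 536 and 445. Ndufs6, Ndufv3, Ndufa12 and Ndufa9 were above all controls in VNS-TAC 1 and 2 and below all in VNS-TAC 3.

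In the proximal membrane arm, next to the quinone site, the members were Ndufa1, Ndufa3, Ndufa8, Ndufa10, Ndufa11, Ndufa13, Ndufc1, Ndufc2 and Ndufs5, and all 9 overlapped between the groups, where 8.01% of all genes were higher and 17.4% lower without overlap. In VNS-TAC 3 their mean was -0.29 on the log2 scale relative to Ctrl-TAC, beside -0.05 for the members of the quinone module, a difference that was not tested. Ndufc1 was at 631, 472 and 304 FPKM against 478, 482 and 464, and Ndufc2 at 367, 304 and 179 against 265, 268 and 249.7. For both, VNS-TAC 1 held over 2 times the level of VNS-TAC 3 (2.08 and 2.05), as it did for Ndufs8 (2.20), and the 3 controls differed little. Ndufa1, an X-linked assembly-critical subunit, was at 279, 277 and 262 against 332, 315 and 268 (log2 fold change -0.16 ± 0.13), and did not show the gap between VNS-TAC 1 and 3. Ndufa3 was at 1249.7, 999.6 and 817 against 983, 985 and 924 (0.06 ± 0.18), and Ndufa11 at 159, 121 and 89.8 against 98.4, 96.1 and 97.8 (0.30 ± 0.20). Ndufa8 and Ndufa10 were above all controls in VNS-TAC 1 and 2 and below all in VNS-TAC 3, while Ndufs5 was above them in VNS-TAC 1 alone. Ndufa13, also known as the cell death regulator GRIM-19, was at 836, 716 and 621 against 679.8, 639 and 563.

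In the distal membrane arm, which holds the antiporter-like pump units furthest from the matrix arm, the members were Ndufb2 to Ndufb11. Apart from Ndufb9, all overlapped between the groups. Ndufb8, whose protein is a common blot marker of assembled complex I, was at 1538, 1204 and 829.5 FPKM against 1025, 1049.8 and 963 (log2 fold change 0.19 ± 0.23). Ndufb3 was at 226, 236 and 149 against 237, 235 and 195 (-0.15 ± 0.20), with only VNS-TAC 3 outside the controls on the low side. Ndufb7, Ndufb10 and Ndufb11 were higher in VNS-TAC 1 and 2 than in every control and close to or below the controls in VNS-TAC 3, at 558, 626 and 543 FPKM. Ndufb2, Ndufb4, Ndufb5 and Ndufb6 were also highest in VNS-TAC 1, at 596, 605, 616 and 354 FPKM. Ndufab1, the mitochondrial acyl carrier protein present in both arms, was at 785, 656 and 422 against 566, 580.3 and 566.

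The gap between VNS-TAC 1 and VNS-TAC 3 varied among the members. It was at least 1.5-fold for 20 genes and under 1.1-fold for 6, namely Ndufa5, Ndufs1, Ndufa2, Ndufa6, Ndufa1 and Ndufv1. The log2 gap had a Spearman correlation of -0.07 with transcript GC content across the 35 members, and of 0.40 over 11319 genes. GC content, with a median of 51.5% over members and 50.6% over all genes, did move with the level of the members within each VNS-TAC library. Across the 35 members, which are not independent and share their libraries, the Spearman correlation of GC content with the log2 level less the Ctrl-TAC mean came to 0.59 for VNS-TAC 1, 0.57 for VNS-TAC 2 and 0.63 for VNS-TAC 3. In the controls it ran from -0.48 to 0.26. Over all genes with a GC value it was 0.58, 0.26 and 0.04 in the 3 VNS-TAC libraries. Of the 5 genes that did not overlap, all had a GC content of at least 51.7%, the value of Ndufa2 and near the median of the members. Members that overlapped lay on both sides of it, from 42.0% (Ndufv2) to 60.4% (Ndufa13), with Ndufs1 at 45.1%. Removal of the GC trend left a median log2 fold change of 0.11. The members also had short transcripts, with a median of 971 bases against 3108 over all genes tested. In VNS-TAC 1 the Spearman correlation of level with length was -0.40 over all genes and -0.03 across the members. Removal of the length trend left a median log2 fold change of 0.06. The part of GC content or length in the differences was not tested.

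**Figure D3:**
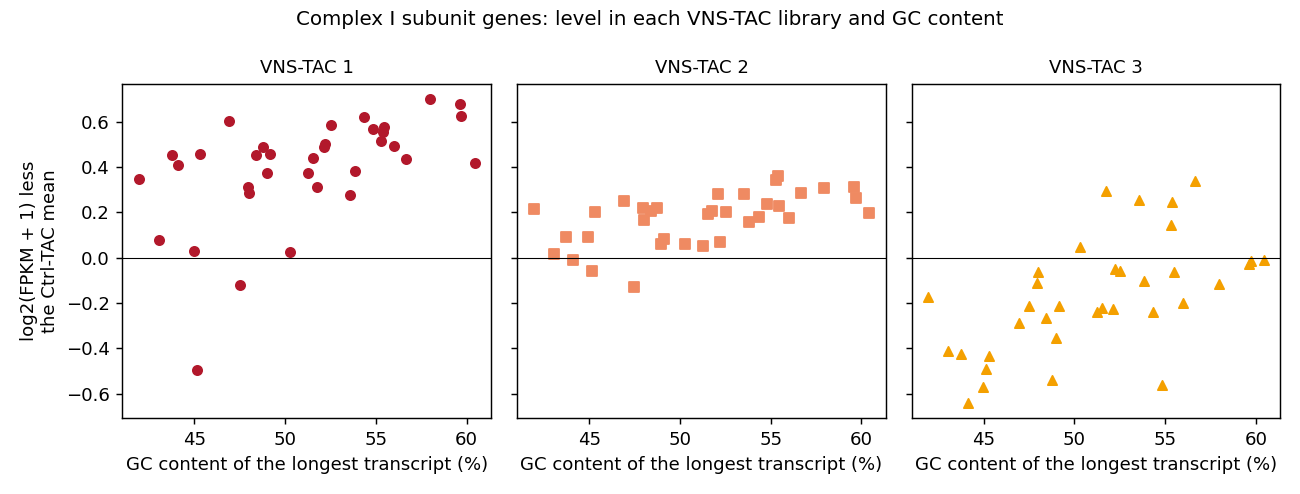
Each point is 1 of the 35 complex I subunit genes, by the GC content of its longest transcript (in percent) and its log2(FPKM + 1) less the Ctrl-TAC mean, in each VNS-TAC library. In all 3 libraries the GC-rich members tend to lie higher, with Spearman correlations of 0.59, 0.57 and 0.63, and the whole cloud sits lower in VNS-TAC 3.

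The factors that assemble complex I but are not part of it were tested in the same fit. Of 19 assembly factor genes tested, of 20 listed, 3 had a higher mean (38.2% of all genes did) and 16 a lower one, and the median log2 fold change was -0.16. On average they stood at -0.03 (VNS-TAC 1), -0.06 (VNS-TAC 2) and -0.43 (VNS-TAC 3) relative to the controls. None passed the adjusted threshold, 4 were lower with no overlap (17.4% of all genes were), and 0 were higher. Lyrm2, an LYR-motif protein, was at 13.9, 15.4 and 16.2 FPKM against 22.1, 19.7 and 19.8 (log2 fold change -0.42 ± 0.12; adjusted p = 0.244). Tmem126b, which helps to build the membrane arm, was at 9.06, 14.1 and 14.3 against 17.0, 17.6 and 16.1 (-0.44 ± 0.18; adjusted p = 0.325). Ndufaf3 was at 35.2, 26.8 and 20.1 against 27.0, 26.4 and 23.8, highest in VNS-TAC 1 and lowest in VNS-TAC 3 like most subunits.

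The other respiratory complexes also had their highest mean in VNS-TAC 1 and their lowest VNS-TAC mean in VNS-TAC 3. Over 41 nuclear subunit genes of complexes II to V the average relative to the controls was 0.41 in VNS-TAC 1, 0.17 in VNS-TAC 2 and -0.12 in VNS-TAC 3, beside 0.39, 0.17 and -0.17 for complex I. In VNS-TAC 3 the mean was -0.21 for complex II, -0.28 for complex III, -0.08 for complex IV and -0.03 for complex V. Of the 41, 36 had a higher mean and 11 were higher with no overlap, beside 30 and 5 of the 35 complex I genes, where 38.2% and 8.01% of all genes did so. Of the 658 abundant genes, 421 and 143 did. Atp5c1, the gamma subunit of the ATP synthase, was at 1384, 1269 and 1268 FPKM against 983, 1029 and 998. When every library was scaled to the level of complexes II to V, also a choice made after the data were seen, 16 of 35 members had a higher mean (19.6% of all genes). Of the 35, 5 were higher without overlap (1.09%) and 3 lower (25.6%), and the median log2 fold change was -0.01. The median of all genes moved to -0.24 on this scale, so their shares are shifted by the scaling.

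**Figure D4:**
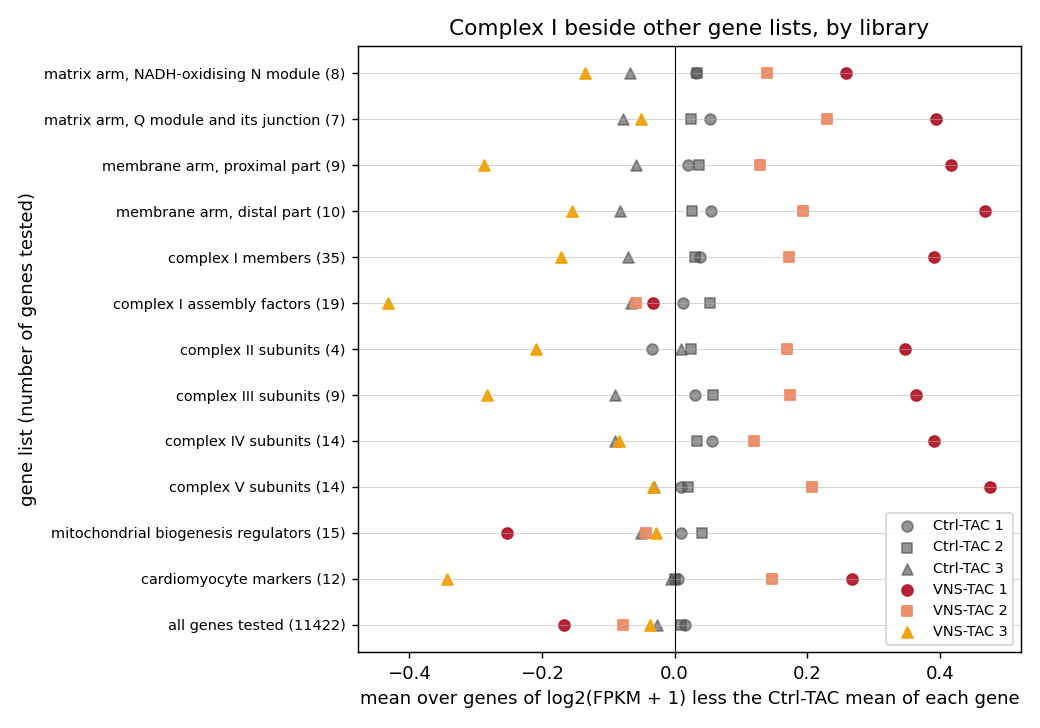
Each row is a gene list with its number of genes tested, and each point the mean over those genes of log2(FPKM + 1) less the Ctrl-TAC mean of each gene in 1 library. Complex I (0.39, 0.17 and -0.17 in VNS-TAC 1, 2 and 3) lies beside the other complexes and the cardiomyocyte markers. In VNS-TAC 1 the assembly factors average -0.03, between complex I and all genes tested (-0.17).

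Scaled to their own mean in each library, a view also added after the data were seen, 5 members stood higher in VNS-TAC without overlap (Ndufb9, Ndufa7, Ndufs7, Ndufb7 and Ndufb11) and 3 lower (Ndufs1, Ndufs4 and Ndufa3). Of all genes, 1.17% and 22.4% did so on that scale. Ndufb9 and Ndufs1 had log2 differences of 0.26 and -0.48 from the mean of the members there, with adjusted p of 0.434 and 0.341. Ndufv1, Ndufa6 and Ndufa2 overlapped on this scale, since VNS-TAC 1 lay at 0.04, -0.11 and -0.08 and VNS-TAC 3 at 0.51, 0.43 and 0.47.

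Of 15 regulators of mitochondrial biogenesis tested, 4 had a higher mean, where 38.2% of all genes did. With no overlap, 2 were higher and 2 lower, where 8.01% and 17.4% of all genes were. The list averaged -0.25 in VNS-TAC 1, -0.04 in VNS-TAC 2 and -0.03 in VNS-TAC 3. These values lay near the averages over all genes tested, -0.17, -0.08 and -0.04. Tfb1m, a mitochondrial rRNA methyltransferase, was at 5.61, 5.13 and 5.38 FPKM against 7.63, 7.48 and 6.73, and Esrrb, an oestrogen-related receptor, at 14.0, 13.7 and 14.2 against 8.69, 10.4 and 12.0. Of 11 genes that supply or dispose of NADH and electrons beside complex I, 6 had a higher mean. Slc25a13, a carrier of the malate-aspartate shuttle, was at 32.9, 39.9 and 22.9 FPKM against 46.8, 46.6 and 47.4, and Dld, the dihydrolipoamide dehydrogenase of the pyruvate dehydrogenase complex, at 90.7, 146 and 117 against 146, 168 and 131. Of 8 genes of mitochondrial content 6 had a higher mean, with a median log2 fold change of 0.19. These 8 averaged 0.16, 0.07 and -0.15 relative to the controls in VNS-TAC 1, 2 and 3. Hspd1, the matrix chaperonin, had the lowest log2 fold change of the 8 (-0.91), at 78.7, 109.95 and 64.9 against 154, 183.5 and 135. None of these genes passed the adjusted threshold (adjusted p of 0.255, 0.264, 0.264, 0.419 and 0.208 for the 5 named).

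Some values carry a limit from counting. Ndufb4 has the near copies Ndufb4c, at 198, 197 and 132 FPKM against 131, 134 and 139, and Ndufb4b, so reads may have been split between them. Ndufa11, Ndufa12, Ndufab1, Ndufs5 and Ndufs6 also have named copies or pseudogenes in RefSeq. In GENCODE M21, 14 members overlap a gene on the opposite strand, among them Ndufs1 with Eef1b2, Ndufa2 with Tmco6 and Ndufb5 with Mrpl47, and 6 overlap one on the same strand, among them Ndufb8 and Ndufb9. Whether counting used the strand is not given in the sources used here, so the reads of such pairs may not have been told apart.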

How the data were processed

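The deposited table holds FPKM values by the authors, per the file headers, to 2 decimals, for 18019 NCBI gene IDs in 6 columns. The submitters' processing notes list HISAT, featureCounts 1.5.0-p3, DESeq 1.8.3 and GRCm38 with no role. Annotation and strand setting: not given in the sources used here. Groups follow the sample titles, because a treatment tag reads VNS for the controls too. Ctrl-TAC columns were matched by library name. The VNS-TAC columns carry the numbers 1 to 3 but the sample labels 4 to 6, so each column was mapped to the group only.

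Symbols came from RefSeq (GRCm38.p6) for 17890 IDs and GENCODE M21 for 15, and 114 had none. Depth, read approximately from the steps of low values, was 13600000 to 16040000 fragments and entered no test. Values were tested as log2(FPKM + 1), which understates changes of low genes, after a filter at a mean of 1 FPKM (11422 genes), with limma 3.58.1 in R 4.3.3 (intensity trend, Benjamini-Hochberg over all genes, threshold 0.05), checked on simulated data. Python 3.11.15, pandas 2.3.3, scipy 1.17.1 and matplotlib 3.10.9 handled the rest. GC content and length are those of the longest GENCODE transcript, found for 11319 genes. Alternatives were pseudocounts, filters, scalings, limma settings, GC and length trends and each library left out. The members and lists were chosen with earlier results of these data known. Values per library are given for members without overlap, core subunits, and the extremes of level and fold change, and for further members as examples chosen after their values were seen; other lists give up to 2 genes by unadjusted p, and Ndufaf3, also chosen after its values were seen.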

Additional observations from a re-analysis of the deposited data

How the results depend on the processing

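No member passed the adjusted threshold in limma under any alternative except array weights, which called 1 (Ndufb9, log2 fold change 0.35). The count higher without overlap went from 5 to 12 with scaling to cardiomyocyte markers (Ndufa6 and Ndufa2 not among them), 3 with the GC trend removed, 3 with the length trend removed and 2 with quantile normalization; with 1 library left out it ran from 5 to 27 (without VNS-TAC 3). The count lower without overlap went from 0 to 1 with scaling to cardiomyocyte markers, 3 with scaling to complexes II to V, 1 with the length trend removed, 2 with quantile normalization and 2 with equal sums of FPKM; with 1 library left out it ran from 0 to 3 (without Ctrl-TAC 3; 1 without VNS-TAC 2). Of 35 members, 16 had a higher mean with scaling to complexes II to V and 16 with quantile normalization; with 1 library left out 18 (without VNS-TAC 1) to 33 did. The median log2 fold change was -0.01 with either of these scalings (-0.0111 and -0.0067), and 0.0105 to 0.3072 with 1 library left out. Scaling to complexes II to V moved the median of all genes from -0.08 to -0.24, and to the complex I members to -0.22.

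Log2 fold changes changed sign for Ndufa3 (-0.0880 scaled to complexes II to V, -0.0676 to the members, -0.0953 with the length trend removed, -0.0831 with quantile normalization, -0.0134 with equal sums), Ndufs3 (-0.0058 scaled to complexes II to V, -0.0149 with quantile normalization), Ndufs4 (0.0618 with the GC trend removed), Ndufs8 (-0.0705 scaled to complexes II to V, -0.0501 to the members, -0.0283 with the GC trend removed, -0.0349 with the length trend removed) and Ndufv2 (-0.0213 scaled to complexes II to V, -0.0009 to the members). With 1 library left out, Ndufa3 ran from -0.0924 to 0.2136, Ndufb8 from -0.0181 to 0.4270 and Ndufs8 from -0.1631 to 0.4024, each lowest without VNS-TAC 1 and highest without VNS-TAC 3. Ndufb3 ran from -0.2722 to 0.0591 and Ndufs4 from -0.1979 to 0.0487, both highest without VNS-TAC 3. The other values of the 16 members with a fold change in the text, 316 in all, kept sign and side of the threshold, except Ndufb9 with array weights. What caused these shifts was not tested. Scalings to marker or subunit lists were chosen after seeing the data, and these lists moved with the members across the VNS-TAC libraries. No paired analysis was possible because each VNS-TAC column is known by group alone, and no replicate block was run. Precision is limited by 3 libraries a group: 95% intervals of the members' log2 fold changes reach 0.27 to 0.63 either side.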
